A study of Homo sapiens with 15 samples.

Results

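The AP-1 factor loci are the gene bodies, with 20 kb on each side, of 10 genes that encode subunits or close relatives of the transcription factor AP-1: JUN, JUNB, JUND, FOS, FOSB, FOSL1, FOSL2, ATF3, BATF3 and MAFF. The genes were taken by name, with no measured value in the rule but with earlier results of these data known, and were placed by their GENCODE v44 coordinates on hg38, as 10 of 20033 protein-coding loci. Their windows held 175 of the 367949 regions that remained after the ATAC-seq peaks of all libraries were merged. Of these, 156 had a peak in at least 2 libraries and were followed here.

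ATAC-seq marks accessible DNA by the insertion of adapters with the Tn5 transposase, and was run on RPTEC, human renal proximal tubule epithelial cells immortalised with hTERT and kept in G418. SETD2 is the methyltransferase that places trimethylation on lysine K36 of histone H3 along transcribed genes and is often mutated in clear cell renal carcinoma. The labels gave 15 libraries in 5 groups of 3: wild-type cells (WT), the SETD2 knockout lines KO1 and KO2, and the lines Rescue1 and Rescue2. The question was how accessibility at these loci differed when SETD2 was lost (KO against WT) and when it was put back (rescue against KO).

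All 5 lines carried hTERT. Per the study's methods, each KO line was a clone made with CRISPR-Cas9 and a guide to exon 3 of SETD2, selected for a frameshift. Each rescue line was a single clone given full-length SETD2 with a 3×FLAG tag by lentivirus and kept in blasticidin. The methods describe no cloning of the WT cells, called parental in the paper. KO and WT thus differ in clonal derivation as well as in SETD2, and these cannot be told apart here. Both rescue clone names begin with that of KO2, which may make KO2 their parent, but the labels do not state it. Libraries are replicates of a line and not of independent knockouts, and p-values measure the spread between these libraries. A peak list does not show a frameshift, so the knockout could not be checked from these data.

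The lists held 197527 to 266011 peaks and covered 49.4 to 65.2 Mb per library, and they hold no read counts, and read totals listed in the study were not used here. The Jaccard index of the regions with a peak was 0.766 to 0.813 between libraries of one group and 0.614 to 0.755 between groups. As a check of the labelled cell type, peaks lay at the starts of PAX8, KRT8, KRT18, EPCAM and CDH6 in all 15 libraries, at the start of CDH1 in 4 and of LRP2 in 5, and at those of CUBN and AQP1 in none. The starts of PTPRC, CD3E, PECAM1 and RBFOX3 had no peak in any library, CDH5 had one in 5 and SYN1 in 15. Since 61.7% of all protein-coding genes had a start peak in all 15 libraries, a start peak alone does not mark a cell type, and the brush border markers CUBN and AQP1 were without one. In bulk samples, fewer cells with an open site and lower accessibility per cell cannot be told apart, and a region without a peak is one below the calling threshold, not one shown to be closed.

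AP-1 is a dimer of basic leucine zipper proteins. JUN proteins pair with each other or with FOS proteins, and the pairs bind the TPA response element, whereas pairs with ATF proteins prefer the cyclic AMP response element. Several of the genes are immediate early genes: growth factors and stress raise them within minutes through MAP kinases, serum response factor and AP-1 itself, and AP-1 is a well-known driver of migration and matrix remodelling genes in epithelia.

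On hg38 the JUN genes lie at chr1:58776845-58784048 (JUN, minus strand), chr19:12791486-12793315 (JUNB, plus) and chr19:18279694-18281622 (JUND, minus). The FOS genes lie at chr14:75278826-75282230 (FOS, plus), chr19:45467995-45475179 (FOSB, plus), chr11:65892049-65900573 (FOSL1, minus) and chr2:28392448-28417317 (FOSL2, plus). ATF3 lies at chr1:212565334-212620777 (plus), BATF3 at chr1:212686417-212699840 (minus) and MAFF at chr22:38200767-38216507 (plus). The windows of JUNB, JUND, FOSB, ATF3 and MAFF also hold 4, 1, 3, 1 (GARIN4) and 2 other protein-coding genes, and that of FOSL1 holds 6, so bases there are not those of the member alone.

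Promoter and upstream sequences are shown first, because the start regions of JUN, JUND and FOS had a peak in all 15 libraries. Motifs searched on both strands were TGANTCA (the TPA response element), TGACGTCA (the cyclic AMP response element), TGACATCA (the variant known from the JUN promoter) and the CArG box, the site of serum response factor. Over 35116 RefSeq promoters, read over 250 bases with no cut at a UTR, these matched in 6.57%, 1.65%, 2.37% and 1.16%. The member promoters were read over the same 250 bases but only up to the first annotated UTR base, so some are shorter. RefSeq promoters (GRCh38.p14) were matched for 8 of the 10 genes, FOSL1 and BATF3 being the others. The capitals below mark a match, and JUN and JUND are read on the minus strand, 5′ to 3′ towards the gene.
JUN promoter, chr1:58784049-58784297: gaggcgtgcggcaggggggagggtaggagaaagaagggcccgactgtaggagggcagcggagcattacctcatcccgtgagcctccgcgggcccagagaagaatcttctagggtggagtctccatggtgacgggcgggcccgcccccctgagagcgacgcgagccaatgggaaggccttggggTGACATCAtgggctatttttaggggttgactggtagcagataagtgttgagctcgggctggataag
JUND promoter, chr19:18281623-18281872: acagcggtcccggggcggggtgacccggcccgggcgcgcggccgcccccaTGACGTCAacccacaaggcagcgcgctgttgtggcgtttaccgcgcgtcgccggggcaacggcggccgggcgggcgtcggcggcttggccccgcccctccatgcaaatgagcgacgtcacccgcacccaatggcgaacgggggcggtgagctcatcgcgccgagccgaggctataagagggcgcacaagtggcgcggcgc
ATF3 distal promoter, chr1:212565157-212565333, plus strand: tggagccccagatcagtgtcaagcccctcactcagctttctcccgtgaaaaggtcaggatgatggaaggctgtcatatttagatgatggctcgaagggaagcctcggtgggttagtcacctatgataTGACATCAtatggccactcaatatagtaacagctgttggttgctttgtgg

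The JUN and ATF3 promoters each held 1 match to TGACATCA and the JUND promoter 1 to TGACGTCA, and the other 5 matched promoters held none of the 4 motifs. For FOS a match lay in the called peak region just upstream of the start (hg38, plus strand). This region is read around its summit, 316 bp upstream of the start, and holds a CArG box.
FOS upstream region, chr14:75278309-75278608: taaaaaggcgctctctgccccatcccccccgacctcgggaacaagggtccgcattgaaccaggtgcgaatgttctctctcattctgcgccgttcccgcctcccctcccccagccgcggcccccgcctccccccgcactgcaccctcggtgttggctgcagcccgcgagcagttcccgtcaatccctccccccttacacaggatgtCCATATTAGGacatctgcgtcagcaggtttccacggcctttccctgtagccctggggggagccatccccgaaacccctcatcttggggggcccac

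The length of DNA under peaks fell at 1 of the 10 loci, ATF3, and rose at none in KO against WT, whereas 29.7% of the 19001 loci tested across the genome passed the same test (15.9% higher, 13.9% lower). In rescue against KO it rose at 2 of 10, FOSL1 and FOSL2, against 38.1% of all loci (31.2% higher, 6.92% lower). The values were tested as log2(bases + 200) with limma over all loci and Benjamini-Hochberg adjustment. Over all loci the median log2 difference was -0.01 in the first comparison and 0.10 in the second.

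**Figure D1:**
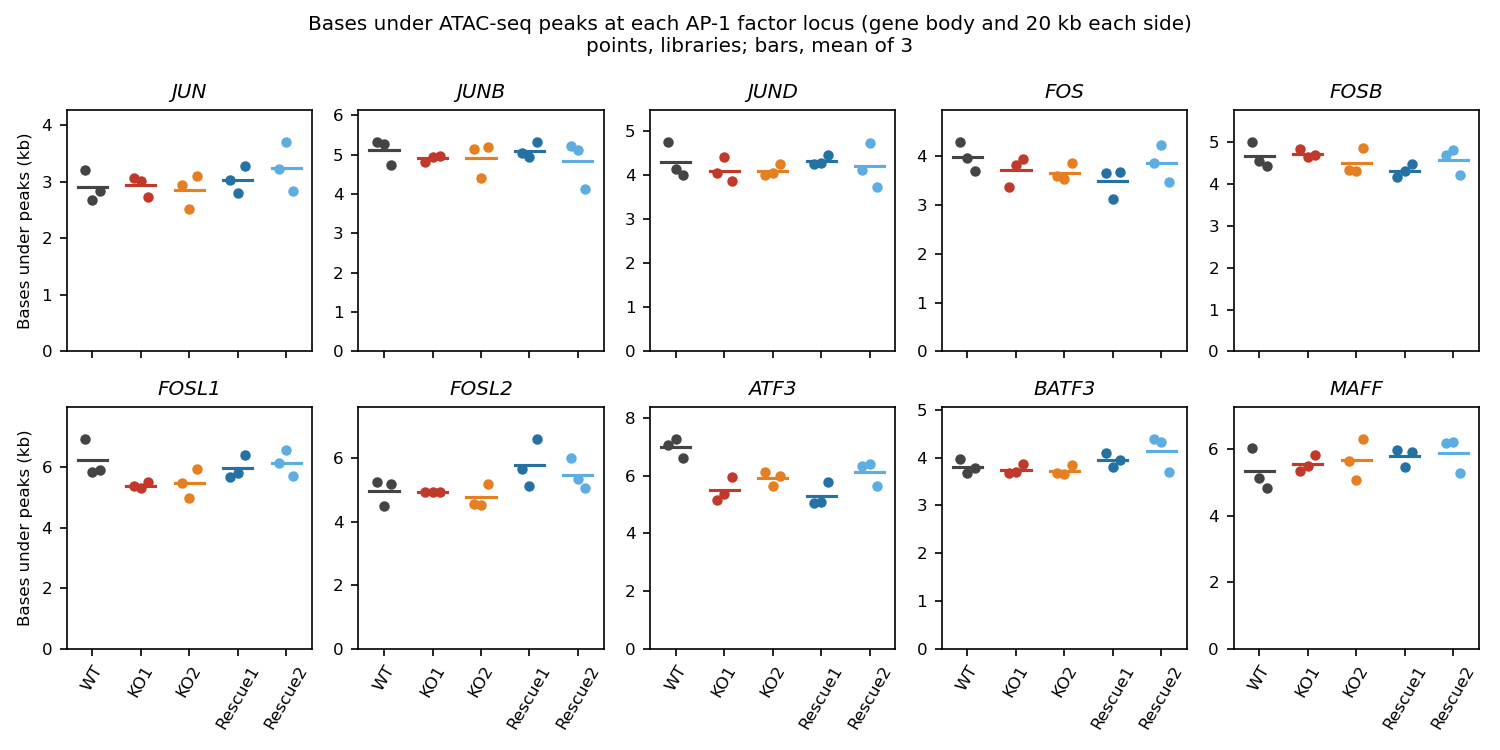
Bases under ATAC-seq peaks (kb) in each of the 15 libraries at the 10 loci; points are libraries, bars the mean of 3 and colours the 5 groups. At ATF3 the 3 WT libraries (6633 to 7279 bases) lie above all 6 KO libraries (5171 to 6149), whereas at the other 9 loci WT and KO overlap. Of the 19001 loci tested, 4800 show such a separation of WT and KO, in either direction.

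ATF3 encodes a stress-induced ATF family protein that pairs with JUN proteins. The locus had 7080, 7279 and 6633 bases under peaks in WT libraries, 5171, 5357 and 5945 in KO1, 6149, 5646 and 6005 in KO2, 5063, 5083 and 5790 in Rescue1, and 6350, 6400 and 5649 in Rescue2. All 12 KO and rescue libraries lay below the 3 WT libraries. WT libraries had a mean of 6997 ± 331 bases (SD, n = 3). The means were 5712 ± 388 bases for the KO lines and 5722 ± 584 for the rescue lines (SD, n = 6 each). KO was lower by limma (log2 difference -0.29, 95% interval -0.43 to -0.14, adjusted p = 0.00253), lower in 6 of 6 libraries. Each clone taken alone also passed, KO1 with -0.34 (adjusted p = 0.00221) and KO2 with -0.23 (adjusted p = 0.0386). Rescue against KO missed the threshold (log2 difference -0.00, 95% interval -0.12 to 0.12), and rescue was lower than WT (-0.29, limma adjusted p = 0.00297). The exact permutation test of the library labels gave p = 0.0238 for KO against WT, the smallest that 3 against 6 libraries allow, and 0.0943 after adjustment. Under that exact test 0 of 19001 loci passed adjustment, 6241 having an unadjusted p under 0.05. As at ATF3, WT and KO libraries were fully separated at 4800 of these loci, in either direction, and WT and rescue libraries at 3818.

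At ATF3 both regions without a peak in KO and fewer bases under peaks within constant regions made up the difference. WT libraries had 20, 22 and 20 regions with a peak at the locus, KO1 13, 15 and 15, KO2 17, 15 and 18, Rescue1 14, 16 and 14, and Rescue2 17, 17 and 16. The 4 regions present in all WT and in no KO library covered 711 bases in the WT mean. The difference KO minus WT in the mean was -493.3 bases over the 11 regions with a peak in all 15 libraries, and -80.8 bases over all other regions.

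FOSL1 encodes FRA1, a FOS family protein linked to migration and mesenchymal change in epithelial cells. The other 6 protein-coding genes of its window are EFEMP2, CTSW, FIBP, CCDC85B, C11orf68 and DRAP1. The locus had 6931, 5847 and 5898 bases in WT, 5364, 5303 and 5505 in KO1, 5467, 4996 and 5941 in KO2, 5682, 5809 and 6400 in Rescue1, and 6133, 6580 and 5692 in Rescue2. In KO 5 of 6 libraries lay below all WT libraries, and the log2 difference of -0.19 missed the threshold (limma adjusted p = 0.0537). Rescue was higher than KO by 0.15 (SE 0.06, adjusted p = 0.0491), with 3 of 6 rescue libraries above all KO libraries. That call was lost in 12 of the 15 fits that left out 1 library, and against KO2 alone it was not made (0.14, limma adjusted p = 0.164), where 24.4% of all loci passed.

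FOSL2 encodes FRA2, a further FOS family protein, and its window holds no other protein-coding gene. It had 5236, 4499 and 5174 bases in WT, 4931, 4943 and 4921 in KO1, 4567, 4537 and 5190 in KO2, 5667, 5115 and 6606 in Rescue1, and 6000, 5351 and 5061 in Rescue2. WT and KO overlapped throughout (log2 difference -0.03, 95% interval -0.19 to 0.13). Rescue exceeded KO by 0.20 (SE 0.06, limma adjusted p = 0.0136), with 4 of 6 rescue libraries above all KO libraries. The difference was 0.23 against KO2 alone (adjusted p = 0.0340). Without Rescue1 replicate 3 or without Rescue2 replicate 1 the call was lost. With 5 kb in place of 20 kb on each side it was not made either (0.07, limma adjusted p = 0.413). The gain was shared between the 7 regions with a peak in all 15 libraries (413 bases more in rescue than in KO) and the other, less constant regions (372 bases more).

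The remaining loci did not pass either test. Among the JUN genes, whose proteins can pair with each other as well as with FOS proteins, JUN had 2672 to 3207 bases in WT, 2528 to 3104 in KO and 2799 to 3708 in rescue libraries. JUNB had 4744 to 5331, 4411 to 5190 and 4126 to 5319 in the same order, and JUND 4009 to 4764, 3863 to 4419 and 3745 to 4735. The 3 groups overlapped at each of these, with KO against WT log2 differences of -0.00, -0.06 and -0.06.

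Of the FOS genes, FOS had 3696 to 4290 bases in WT, 3365 to 3936 in KO and 3128 to 4223 in rescue libraries, and 3 of 6 KO libraries lay below all WT libraries (log2 difference -0.11, 95% interval -0.27 to 0.05). FOSB had 4429 to 4995, 4301 to 4853 and 4157 to 4795 bases (-0.01 for KO against WT). BATF3, which encodes a small partner of JUN known from dendritic cells, had 3675 to 3969, 3653 to 3858 and 3704 to 4388, with rescue above KO by 0.11 short of the threshold (limma adjusted p = 0.139). MAFF, a small MAF protein that lacks an activation domain, had 4828 to 6037, 5082 to 6305 and 5282 to 6216 bases (0.08 for KO against WT).

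**Figure D2:**
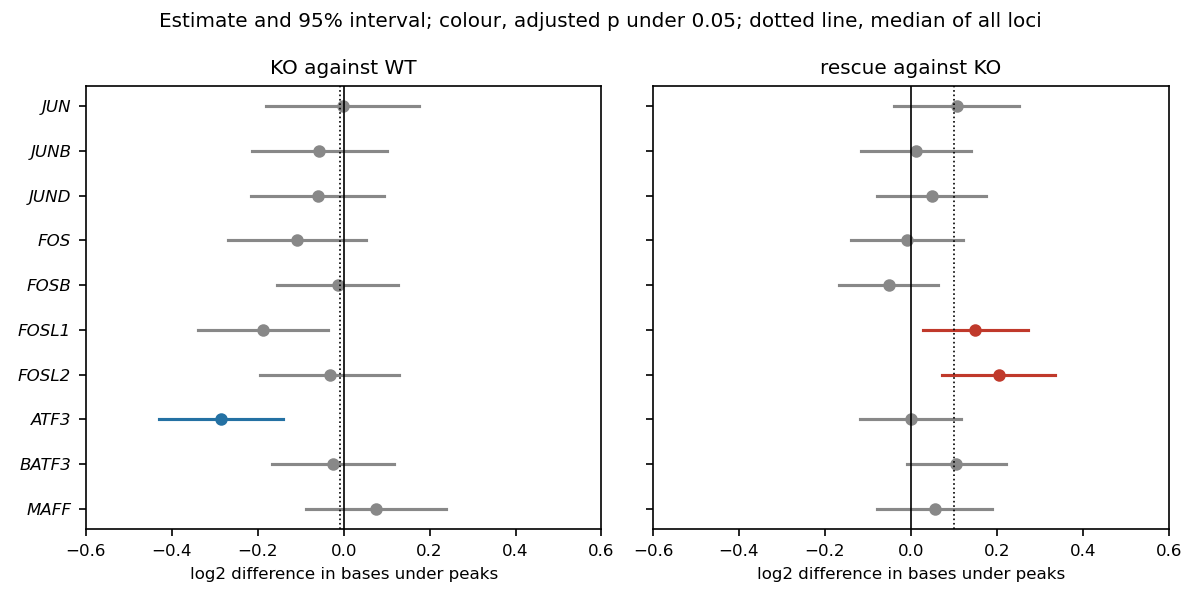
Log2 difference in bases under peaks with its 95% interval for the 10 loci, KO against WT on the left and rescue against KO on the right; coloured points passed an adjusted p of 0.05 and the dotted line is the median of all loci. ATF3 (-0.29) passed on the left, FOSL1 (0.15) and FOSL2 (0.20) on the right.

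The KO against WT count depended on scale. When bases were divided by the total under peaks of each library, 8 of 10 loci were lower in KO (all but JUN and MAFF), the median of all loci was -0.11 and 44.2% of all loci were lower and 14.5% higher, so that 24.8% of the calls were higher in place of 53.3%. ATF3 remained lower there (-0.40, limma adjusted p = 4.99e-08). With 5 kb in place of 20 kb on each side, ATF3 (-0.35, adjusted p = 0.0017) and FOS (-0.35, adjusted p = 0.0185) were lower and FOSL2 was higher (0.22, adjusted p = 0.0306) in KO, where 12.6% of loci were lower and 14.7% higher. Scaling left FOSL2 (0.15) and FOSL1 (0.09) higher in rescue than in KO and made FOSB lower (-0.11), where 31.5% of loci were higher and 14.5% lower, and 68.5% of the calls were higher in place of 81.8%. With 5 kb flanks BATF3 (0.19) and FOSL1 (0.18) were higher in rescue and FOSL2 (0.07) was no longer called, where 25.3% of loci were higher and 6.74% lower. The 2 clones of each kind were also set against each other: 0 members passed for KO1 against KO2 and 0 for Rescue1 against Rescue2 by limma, where 3.11% and 4.22% of all loci did. At an unadjusted p under 0.05 there were 0 for KO1 against KO2, and 1 for Rescue1 against Rescue2, ATF3 (-0.20, limma p = 0.0200 before and 0.187 after adjustment); the exact test cannot go below 0.1 with 3 against 3.

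Single regions were next compared by presence and absence of a peak. A region was called lost in KO when all 3 WT libraries and none of the 6 KO libraries had a peak in it, and gained when the reverse held. At the AP-1 loci 10 of 156 regions were lost (6.41%, against 2.48% of all 295008 regions) and 3 were gained (1.92%, against 4.79%). The losses fell at 6 loci, 4 of them at ATF3 and 2 at FOS, and 8 of the 10 had a peak in no rescue library either, as had 41.7% of the 7308 lost regions genome-wide. Of all member regions, 5.13% showed that pattern, against 1.03% of all regions. With only peaks of −log10 q of at least 5 kept, 2 of 126 member regions were lost and 1 was gained, against 2.65% and 4.76% of all regions, so the share lost was then no longer above that of all regions. No test was made on these counts.

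**Figure D3:**
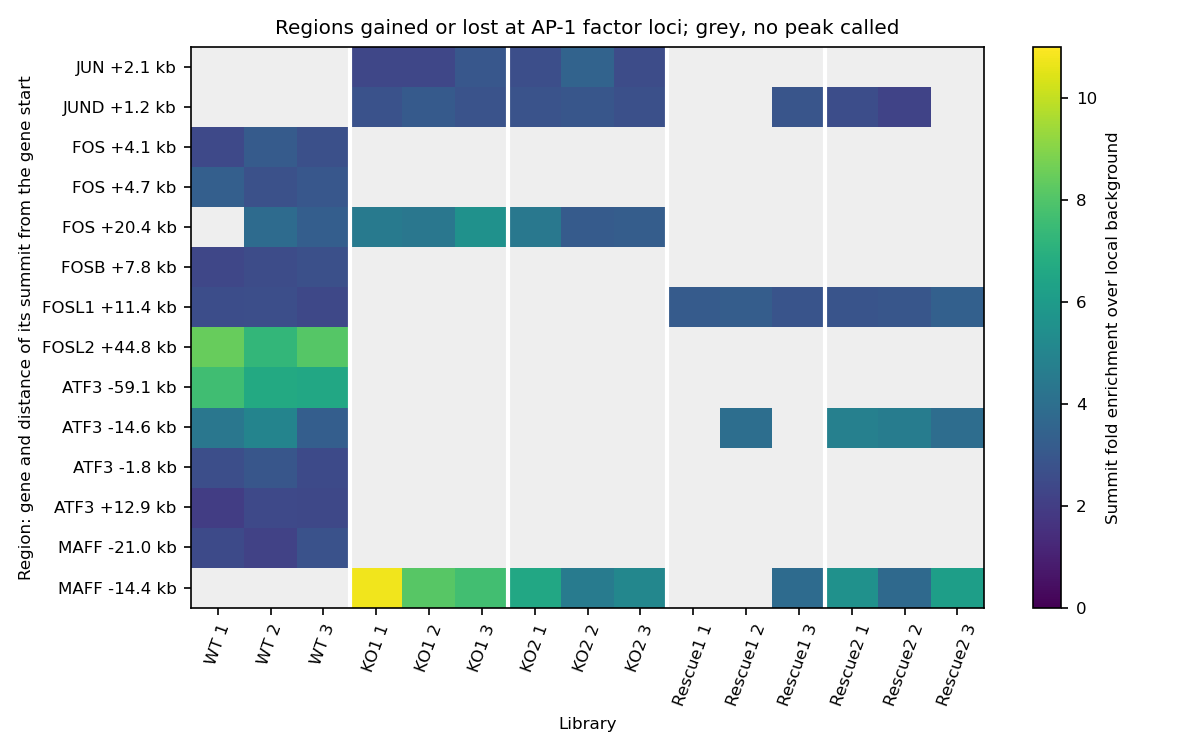
Summit fold enrichment over local background (colour) in each library (columns) for the 14 regions gained or lost at AP-1 loci (rows, with distance of the summit from the gene start); grey is no called peak. Most rows lost in KO stay empty in the rescue columns, whereas the FOSL1 row, 11358 bp from the start, has peaks in all 6 rescue libraries.

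At FOS, the partner of JUN that defines classical AP-1, the lost regions lay 4062 and 4655 bp from the start, downstream of the gene (chr14:75282680-75283043 and chr14:75283126-75283605). Together they covered 541 bases in the WT mean and were empty in all other 12 libraries. Their WT peaks were low, with summit fold enrichments over the local background of 2.44, 2.67 and 3.15 at the first and 2.71, 2.98 and 3.32 at the second. The 7 FOS regions with a peak in all 15 libraries covered 53.7 bases more in KO than in WT.

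The 4 regions lost at ATF3 differed in height. The intergenic region 59082 bp upstream of the canonical start (chr1:212549610-212549774) had WT enrichments of 6.59, 6.67 and 7.63 and no peak elsewhere. The intron region at -14574 bp (chr1:212594033-212594261) had 3.30, 4.34 and 4.97 in WT, no peak in KO, and a peak in 1 Rescue1 and 3 Rescue2 libraries (3.92 to 4.81). Those at -1809 bp (chr1:212606847-212607083, an intron of the long transcript) and 12916 bp (chr1:212621619-212621852, downstream) were low, at 2.48 to 2.96 and 2.002 to 2.44. The first 2 are shown, being the higher ones. They hold none of the 4 motifs searched, so no letter is in capitals (hg38, plus strand).
ATF3 lost region upstream, chr1:212549610-212549774: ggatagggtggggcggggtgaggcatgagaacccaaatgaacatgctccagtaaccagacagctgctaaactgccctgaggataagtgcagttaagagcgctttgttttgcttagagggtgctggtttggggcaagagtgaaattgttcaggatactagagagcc
ATF3 lost region in an intron, chr1:212594033-212594261: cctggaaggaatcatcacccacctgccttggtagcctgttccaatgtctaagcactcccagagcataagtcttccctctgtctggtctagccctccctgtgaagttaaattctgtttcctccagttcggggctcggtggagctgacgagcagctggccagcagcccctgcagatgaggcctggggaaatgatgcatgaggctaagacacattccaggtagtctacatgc

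The distal ATF3 promoter printed above was itself variable: the region that overlaps it (chr1:212565225-212565420) had a peak in 2 WT, 0 KO1, 3 KO2, 3 Rescue1 and 3 Rescue2 libraries. All KO2 and no KO1 library held a called peak there. The share of all regions with such a split between the KO lines was not counted, and the difference was not tested.

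**Figure D4:**
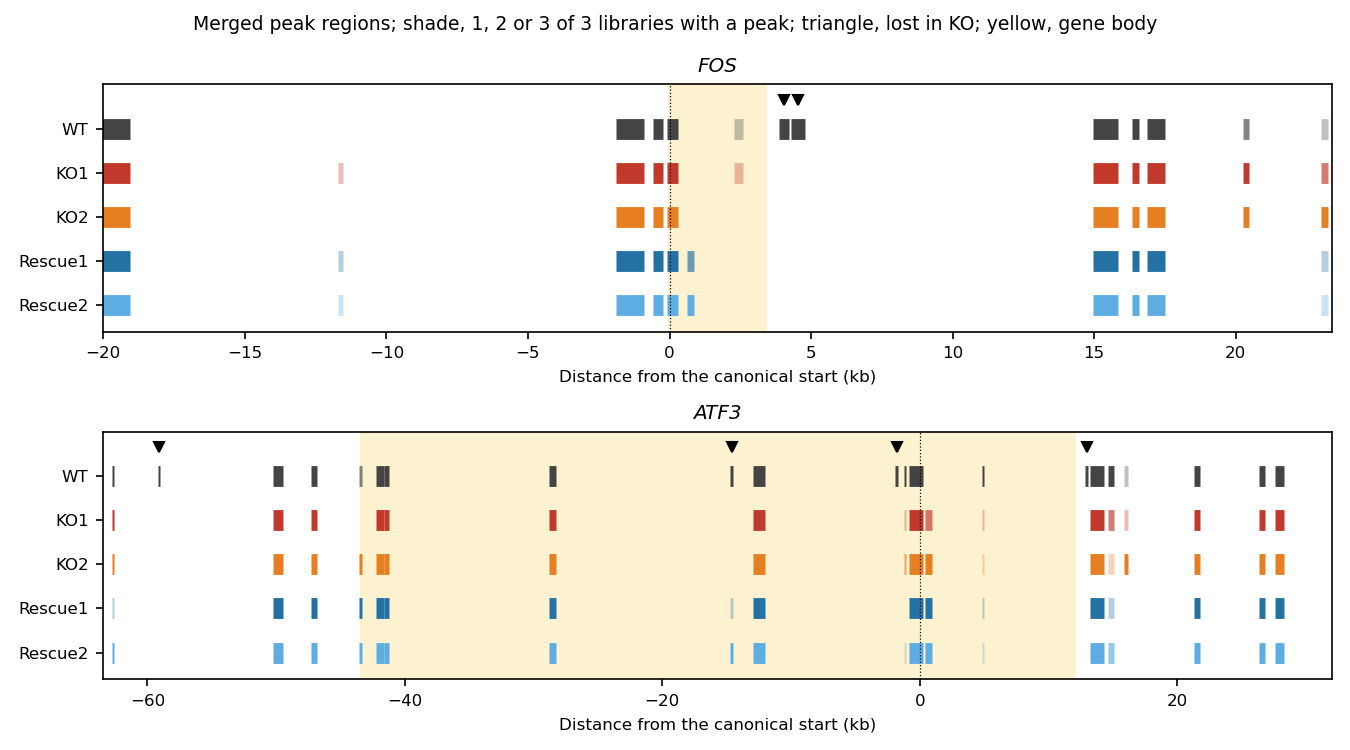
Merged peak regions at FOS and ATF3 by distance from the canonical start (kb), 1 row per group, with darker blocks for more of the 3 libraries, triangles on regions lost in KO and the gene body in yellow. The 2 triangles at FOS lie just downstream of the gene, and the 4 at ATF3 spread from 59082 bp upstream to 12916 bp downstream of the start.

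FOSL2 had the highest lost region, 44791 bp downstream of its start (chr2:28437200-28437793, intergenic). It overlaps the end of the window, and its summit and the sequence shown lie beyond that end. It had WT enrichments of 7.27, 8.10 and 8.44, above the median of all peaks in these libraries (6.66 to 6.93), and no peak in the other 12. Of the 10 lost regions, 8 had a WT median below that range, and the upstream ATF3 region lay within it. The FOSL2 sequence around the summit is shown for its height, and no motif was matched.
FOSL2 lost region, chr2:28437494-28437793: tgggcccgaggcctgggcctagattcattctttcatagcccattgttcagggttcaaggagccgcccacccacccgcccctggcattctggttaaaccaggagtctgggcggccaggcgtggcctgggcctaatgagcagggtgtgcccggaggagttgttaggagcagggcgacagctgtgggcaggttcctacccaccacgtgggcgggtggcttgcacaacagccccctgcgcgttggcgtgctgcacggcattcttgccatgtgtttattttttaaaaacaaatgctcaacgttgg

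Merged regions within 500 bp of the start of any annotated transcript of a protein-coding gene were counted as promoter regions. At FOSL1 the lost region was counted as one for the neighbouring gene FIBP, 11358 bp from the FOSL1 start (chr11:65888843-65889127). A separate merged region lay beside it (chr11:65887909-65888780), so the lost region is not the whole FIBP promoter. The lost region had low peaks. It had 2.38, 2.61 and 2.63 in WT, no peak in KO and 2.86 to 3.36 in all 6 rescue libraries. It was the 1 region of the AP-1 loci that was lost in KO and present in every rescue library, a pattern that 0.314% of all regions showed. The other losses lay in an ERCC1 intron 7847 bp downstream of the FOSB start (2.33 to 2.70) and at a PLA2G6 promoter 20994 bp upstream of the MAFF start (2.15 to 2.79), both in all WT and in none of the other libraries.

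The 3 gained regions lay at JUN, JUND and MAFF. The JUN one was in the 3′ UTR (chr1:58781834-58781980), with 2.32 to 3.52 in KO and no peak in WT or rescue, a pattern of 0.818% of all regions. The JUND one was in the coding exon (chr19:18280261-18280567), with 2.67 to 3.11 in KO and peaks in 3 rescue libraries. The MAFF one was in an intron of PLA2G6, 14407 bp upstream of the MAFF start (chr22:38187401-38187913), with a median of 7.13 in KO (4.58 to 10.8) and peaks in 4 rescue libraries (3.77 to 6.16). It is printed as the gained region with the highest peaks, and it held no match.
MAFF gained region, chr22:38187438-38187737, plus strand: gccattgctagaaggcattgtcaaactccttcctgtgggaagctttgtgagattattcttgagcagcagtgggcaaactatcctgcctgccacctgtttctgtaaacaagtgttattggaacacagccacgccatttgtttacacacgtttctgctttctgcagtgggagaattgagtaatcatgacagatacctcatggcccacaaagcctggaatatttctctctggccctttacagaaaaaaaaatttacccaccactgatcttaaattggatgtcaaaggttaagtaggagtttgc

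In rescue against KO, 1 region was gained (the region near the FIBP start at FOSL1, against 0.91% of all regions) and 2 were lost (against 1.24%). The lost ones were the JUN 3′ UTR region and a region 20363 bp downstream of the FOS start (chr14:75299101-75299294). The latter had a peak in 2 WT libraries (3.28 and 3.83), in all 6 KO libraries (3.17 to 5.58, median 4.40) and in no rescue library.

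Many regions at these loci were shared by all lines. Of the 156 regions, 82 (52.6%) had a peak in all 15 libraries, against 35.6% of all regions. By annotation, 58 of the 156 were intergenic, 48 in promoters, 38 in introns, 5 in coding exons, 4 in UTRs and 3 in other exons. The regions at the canonical transcript starts of JUN, JUNB, JUND, FOS, FOSL1, FOSL2, ATF3, BATF3 and MAFF belonged to the 82. By the 5′ end of the whole gene, the measure used for the cell type markers, MAFF had a start peak in 0 and ATF3 in 11 libraries. FOSB was the exception. Its upstream region had a peak in all WT and KO libraries and in 2 libraries of each rescue line, and the start itself lay in a region with peaks in 1 WT, 3 KO1 and 1 Rescue2 library.

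Peak heights within the 82 constant regions were compared by the summit fold enrichment, which is a ratio to the local background of the same library. The values are not read counts, a change in the background moves them too, and they were quantile normalised and tested with limma over 104967 regions. Enrichments given for constant regions are the normalised values, whereas those of gained and lost regions were not normalised. In KO against WT, 11 member regions were higher and 2 lower, 13 of 82, against 24.7% of all regions (12.5% higher, 12.2% lower). The median log2 difference was 0.05 over the member regions and -0.02 over all. The KO libraries enter both comparisons. In rescue against KO, 11 were higher and 3 lower, against 24.1% (12.2% higher, 11.9% lower), with medians of 0.03 and -0.01. Against KO2 alone, 5 rather than 14 member regions passed, where 10.8% of all regions did.

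**Figure D5:**
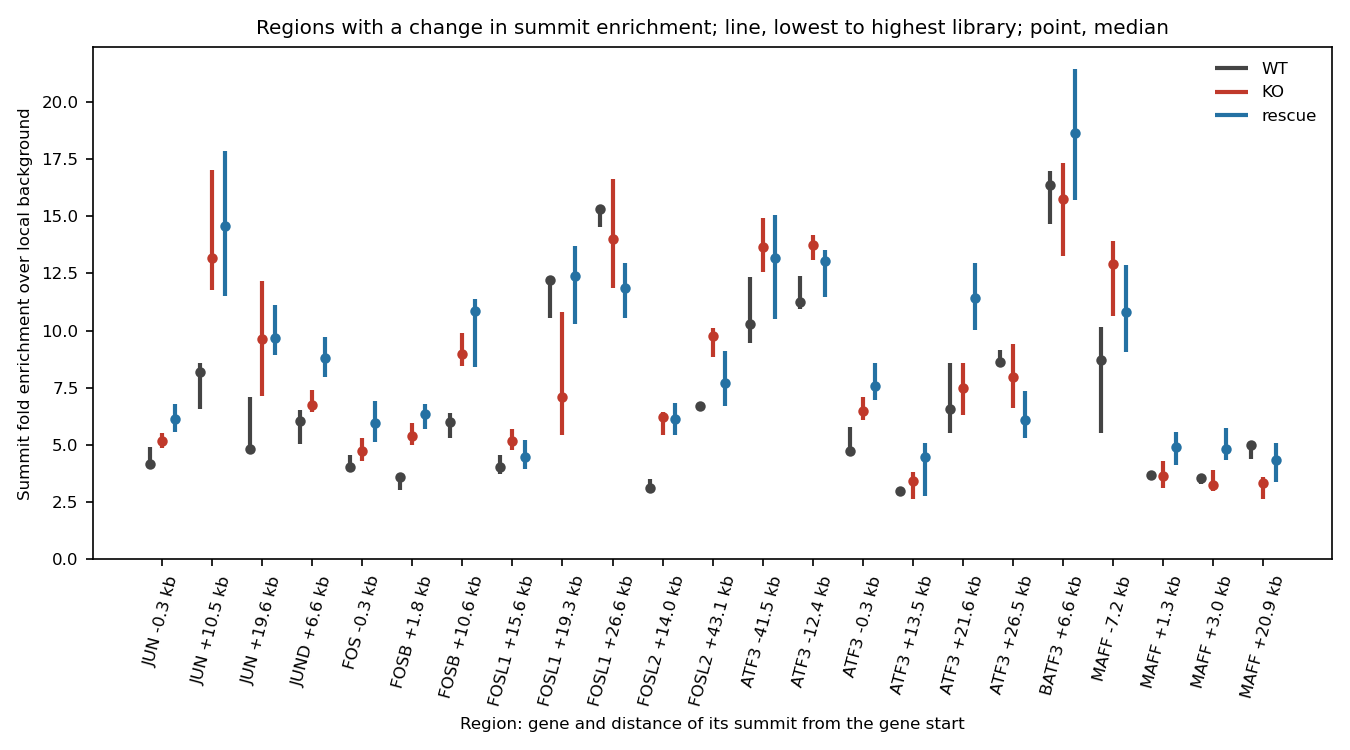
Summit fold enrichment over local background, after quantile normalisation, in WT, KO and rescue libraries for the 23 constant regions that passed in either comparison. Points are medians and lines run from the lowest to the highest library. The FOSL2 region 14040 bp from the start is higher in KO and rescue than in WT. The FOSL1 region at 19272 bp has a lower median in KO than in WT and rescue, with ranges that overlap through KO2.

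The largest rise in KO was in an intron of FOSL2, 14040 bp from the start (chr2:28406524-28407101). Its summit enrichment was 3.01, 3.12 and 3.51 in WT, 5.42, 6.24 and 6.28 in KO1, and 5.90, 6.23 and 6.43 in KO2. It was 5.46 to 6.84 in rescue, so that all 12 other libraries lay above WT. KO was higher than WT by 0.92 (SE 0.10, limma adjusted p = 3.78e-06), and rescue against KO gave -0.00 (adjusted p = 0.987). A further FOSL2 region 43102 bp downstream (chr2:28435505-28436324) rose in KO by 0.52 (adjusted p = 0.00122) and fell by 0.31 in rescue against KO (adjusted p = 0.0129), with medians of 6.72 in WT, 9.74 in KO and 7.71 in rescue libraries. The intron region is printed, and no motif was matched in it.
FOSL2 intron region, chr2:28406749-28407048, plus strand: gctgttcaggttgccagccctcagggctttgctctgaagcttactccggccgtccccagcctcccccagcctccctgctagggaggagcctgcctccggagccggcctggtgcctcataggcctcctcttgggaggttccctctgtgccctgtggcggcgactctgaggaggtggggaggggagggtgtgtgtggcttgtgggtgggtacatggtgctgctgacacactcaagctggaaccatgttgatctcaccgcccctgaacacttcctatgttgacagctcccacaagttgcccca

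FOSL1 had the largest fall among the 82 regions. The region 19272 bp downstream of its start lies in a coding exon of CTSW, a protease gene of cytotoxic lymphocytes (chr11:65880924-65881509). Its enrichment was 10.6, 12.2 and 12.3 in WT, 5.42, 5.73 and 5.94 in KO1, 8.27, 9.40 and 10.8 in KO2, and 10.3 to 13.7 in rescue libraries. The KO1 range lay below those of WT and rescue, whereas the KO2 range overlapped both. KO was lower than WT by limma (-0.67, SE 0.11, adjusted p = 0.000234) and rescue higher than KO (0.71, SE 0.09, adjusted p = 2.75e-05). The KO lines differed there too (KO1 against KO2 -0.73, adjusted p = 0.00411), 1 of 2 among the 82 regions to pass between KO lines, where 3.1% of all regions did. The other was an intergenic region 11352 bp upstream of the JUND start, picked out after its values were seen, with 4.99 to 6.20 in KO1 and 3.73 to 4.03 in KO2 (0.54, SE 0.12, limma adjusted p = 0.0207). Between the rescue lines 0 passed (2.33% of all regions). The region holds a match to TGANTCA, in capitals.
FOSL1 downstream region, chr11:65880967-65881266, plus strand: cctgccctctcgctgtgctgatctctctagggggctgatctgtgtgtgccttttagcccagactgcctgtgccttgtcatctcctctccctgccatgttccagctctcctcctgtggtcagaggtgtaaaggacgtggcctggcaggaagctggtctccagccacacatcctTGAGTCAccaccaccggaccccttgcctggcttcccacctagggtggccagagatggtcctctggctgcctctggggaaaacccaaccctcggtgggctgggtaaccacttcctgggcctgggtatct

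At MAFF, a promoter region of TMEM184B 20929 bp from the start was also lower in KO and higher in rescue, at 4.41 to 5.19 in WT, 2.66 to 3.62 in KO and 3.37 to 5.08 in rescue libraries (log2 difference -0.57, adjusted p = 0.00196, and 0.37, adjusted p = 0.0105, by limma). A PLA2G6 intron 7245 bp upstream of MAFF rose in KO (0.68, adjusted p = 0.00298), from 5.54 to 10.1 in WT to 10.6 to 13.9 in KO. Within MAFF, the intron region at 2990 bp did not pass in KO against WT (-0.06) and was higher in rescue than in KO (0.55, adjusted p = 3.15e-05), at 2.98 to 3.89 in KO and 4.36 to 5.72 in rescue libraries.

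JUN had 2 intergenic regions beyond its 3′ end that rose in KO. The one 10459 bp from the start had 6.55, 8.18 and 8.58 in WT, 11.7 to 17.02 in KO and 11.5 to 17.9 in rescue (0.82, limma adjusted p = 5.61e-05). The one at 19631 bp had 4.73, 4.84 and 7.102 in WT, 7.12 to 12.1 in KO and 8.94 to 11.1 in rescue (0.77, adjusted p = 0.000401). At both, WT and KO ranges did not overlap, and rescue against KO missed the threshold (0.07 each).

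At 6 of the 9 constant start regions (JUN, JUNB, JUND, FOS, FOSL2 and ATF3) the medians were lowest in WT and highest in rescue libraries. The share of all constant regions, or of the starts of other genes, with this order was not counted. The order was not tested and is not shown to be particular to these loci. The JUN start region had medians of 4.17 in WT, 5.16 in KO and 6.13 in rescue libraries, and rescue against KO passed (0.24, limma adjusted p = 0.0452, against 0.26, adjusted p = 0.0791, for KO against WT). The FOS upstream region with the CArG box, which does not hold the start, had medians of 4.03, 4.75 and 5.96. Here too rescue against KO passed (0.33, limma adjusted p = 0.0120) and KO against WT did not (0.20, adjusted p = 0.202). The FOS region that holds the start, with its summit 33 bp from it, passed in neither comparison. The canonical ATF3 start region had 4.75, 6.49 and 7.58, and KO against WT passed (0.39, adjusted p = 0.00926) while rescue against KO did not (0.23, adjusted p = 0.0529). The ATF3 start peak was thus higher in KO while fewer bases of the locus were covered. Without WT replicate 1 or without WT replicate 2 this call was lost. At FOSB the region 1836 bp into the gene had 3.03, 3.62 and 3.62 in WT, 5.02 to 5.95 in KO and 5.69 to 6.79 in rescue, and passed both (0.67, adjusted p = 4.77e-05, and 0.22, adjusted p = 0.0499). The ERCC1 promoter, 10640 bp from the FOSB start, also rose in KO (0.63, adjusted p = 0.000384), from 5.33 to 6.38 in WT to 8.43 to 9.90 in KO, and a FIBP exon 15571 bp from the FOSL1 start rose by 0.33 (adjusted p = 0.0241), a call lost without WT replicate 1 (0.32, adjusted p = 0.0756) or WT replicate 2 (0.26, adjusted p = 0.139). The rescue against KO calls at JUN and within FOSB were lost in 10 and 12 of the 15 fits that left out 1 library. The start regions of JUNB, JUND, FOSL1, FOSL2, BATF3 and MAFF passed in neither comparison, with log2 differences of -0.01 to 0.10 for KO against WT.

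In rescue against KO, the ATF3 locus also had a higher region 21579 bp downstream of the start (chr1:212630096-212630496), at 6.29 to 8.57 in KO and 10.01 to 12.96 in rescue libraries (0.61, limma adjusted p = 0.000535). Its WT values were 5.53 to 8.59, so the rescue libraries lay above both groups. BATF3 had a higher intron region (0.28, adjusted p = 0.0156) and JUND a higher region at the IQCN promoter 6570 bp away (0.36, adjusted p = 0.00588). The lower regions were at the EFEMP2 promoter in the FOSL1 window (-0.23, adjusted p = 0.0176), at ATF3 26496 bp downstream (-0.36, adjusted p = 0.0225) and at FOSL2 43102 bp downstream. The EFEMP2 call was lost without Rescue1 replicate 3 (adjusted p = 0.0502), and that at ATF3 without KO1, KO2 or Rescue2 replicate 1 (adjusted p = 0.0591 to 0.0646).

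Motif matches were counted in the regions as well. Within 200 bp around the summit, TGANTCA matched in 28 of 156 member regions (17.9%), against 30.1% of all regions, and in 18 of the 82 constant ones (22.0%), against 34.2% of all constant regions. None of the 10 lost and none of the 3 gained member regions held it, where 18.6% of all lost and 39.7% of all gained regions did. TGACGTCA matched in 2 member regions, TGACATCA in 2 and the CArG box in 3, against 0.344%, 1.83% and 1.02% of all regions. These matches are letters in a window and describe neither binding nor a cause.

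Other genes of the AP-1 pathway were read from lists by the same measure, the length under peaks at the locus. Of 19 partners and other basic leucine zipper genes, 2 rose in KO against WT and none fell (median 0.08), against 15.9% higher and 13.9% lower among all loci: MAF, a large MAF protein (0.32, limma adjusted p = 0.0118), and BATF, a relative of BATF3 (0.29, adjusted p = 0.0202). In rescue against KO 3 rose and 2 fell (31.2% and 6.92% of all loci), with NFE2L1, a proteasome regulator, at -0.34 (adjusted p = 0.00021) and NRL and BATF2 at 0.22 each. Of 20 kinases, phosphatases and factors upstream of AP-1, 2 rose and 2 fell in KO (median -0.06), a smaller share in each direction than the same 15.9% and 13.9% of all loci. ELK3, a partner of serum response factor, rose by 0.38, whereas MAP2K1 (MEK1) was at -0.28 and MAP2K7, an activator of JNK, at -0.27. In the rescue lines 9 of the 20 rose against KO and none fell (median 0.13), among them MAP2K1 (0.39, adjusted p = 5.3e-06), MAPK9 (0.39), MAP2K2 (0.34) and MAPK8 (0.22). The background for that comparison was 31.2% higher.

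Of 19 textbook AP-1 targets, 4 rose and 3 fell in KO (median -0.03), beside 15.9% higher and 13.9% lower among all loci. MMP3, a stromelysin and a classical AP-1 target, had the largest difference of the list, with a mean of 232.0 ± 73.3 bases in WT (SD, n = 3), against 892 ± 202 for the KO and 361 ± 105 for the rescue lines (SD, n = 6 each). KO exceeded WT by 1.33 (limma adjusted p = 1.29e-07), and the rescue lines were below KO (-0.96). HMOX1, the heme oxygenase, rose by 0.32, while PLAU, the urokinase, and SPP1, osteopontin, were at -0.29 and -0.24. Against KO, in rescue 4 rose and 3 fell (median 0.07; 31.2% and 6.92% of all loci), with CXCL8 at -0.44, MMP9 at 0.35 and IL6 at 0.23. Of 18 other immediate early genes 2 rose and 4 fell in KO (median -0.07; 15.9% and 13.9% of all loci): NR4A1 at -0.33, CCN1 at -0.33, EGR1 at -0.35 and NR4A2 at 0.23 led by p. In the rescue lines 1 rose against KO (NR4A1, 0.19) and 1 fell (CCN2, -0.24; median 0.04), against the same 31.2% and 6.92%.

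The 2 loci with the largest KO against WT differences, ATF3 and FOSL1, were also set beside all other loci by the pattern of log2(bases + 200) over the 15 libraries. ATF3 was most like SNX10 (Pearson r 0.948), LYG1 (0.925) and STBD1 (0.916), and FOSL1 most like ADGRF3 (0.959), MBOAT7 (0.947) and CISH (0.946). All loci share the same 15 libraries and their list lengths, and the values are a description.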

How the data were processed

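ATAC-seq libraries of RPTEC cells were aligned to hg38 with BWA (0.7.17 per the submitters' processing notes) and peaks were called by the authors with MACS2 2.2.7.1 for each of the 15 libraries separately, without pooling. Whether a control, duplicate removal, a Tn5 shift or a blacklist was used is not given in the sources used here. DiffBind 2.14.0 is named in the notes, but its counts were not used here. The deposited lists give for each peak the fold enrichment at the summit, a ratio to that library's own local background, and the −log10 of the p-value and of the q-value. The series text speaks of duplicates whereas the labels and methods give 3 libraries per line.

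Peaks were merged over libraries (overlap of at least 1 bp), regions with peaks in at least 2 libraries were kept, and bases under peaks were summed per locus (protein-coding gene body and 20 kb each side, clipped at the window). Loci with a mean of at least 200 bases (19001) were tested as log2(bases + 200), and regions with a peak in all libraries (104967) as log2 summit enrichment after quantile normalisation, with limma 3.58.1 (R 4.3.3, group means over all 5 groups, Benjamini-Hochberg adjustment over all features). KO is KO1 and KO2 together and rescue is Rescue1 and Rescue2 together. Values per library set the precision, since the lists hold no counts. Tables were made with Python 3.11.15. On simulated data for KO against WT, 75% of 100 changed loci were recovered at a log2 change of 0.5 and 99% at 1, and 33% and 91% of 100 changed regions. There were 7 false calls for loci and 7 for regions. The simulation drew independent noise for each feature and library and shifted both KO lines alike. It changed a far smaller share of features than passed in the data (29.7% of loci and 24.7% of regions). Recovery and false calls in the data may therefore differ. No change below 0.5 was simulated, so recovery at the smaller differences of the member loci (0.29 or less in size) is not known.

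The members and lists were chosen with earlier results of these data known. Some items of the marker and pathway lists and 1 region's sequence are not reported here. Named were all members, regions at their starts, every gained or lost region, up to 3 regions per locus by size of the height difference, up to 4 genes per pathway list by p among those called, and 3 loci of like pattern for 2 members. Alternatives were another scaling, threshold, list length, flank, overlap, filter, pseudocount, normalisation, test, clone and block, and each library left out.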

Additional observations from a re-analysis of the deposited data

Results flagged for a closer look

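Bases under peaks at JUNB in Rescue2 replicate 3, 4126, stood apart from the other 5 rescue libraries, which held 4956 to 5319. This was 1 of 20 sets of 6 libraries (KO and rescue at the 10 loci), and chance gives about 1 in 20. The region 19272 bp from the FOSL1 start, in a CTSW exon, differed between the KO lines, with summit enrichments of 5.42, 5.73 and 5.94 in KO1 and 8.27, 9.40 and 10.8 in KO2 (log2 difference -0.73, limma adjusted p = 0.00411). The intergenic region 11352 bp upstream of the JUND start also differed between them, with 4.99 to 6.20 in KO1 and 3.73 to 4.03 in KO2 (0.54, limma adjusted p = 0.0207).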

How the results depend on the processing

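ATF3 was lower in KO than in WT with any 1 library left out (-0.32 to -0.26). The count of loci that differed in KO against WT, 1, was 8 after scaling to the total bases (58.7% of all loci), 2 with −log10 q of at least 5 (28.4%), 2 with 150000 peaks per library (33.4%), 3 with 5 kb flanks (27.4%), 0 by the exact permutation test and 1 to 2 with 1 library left out (23.7% to 35.0%); 2 were called without KO2 replicate 3 or Rescue2 replicate 3. The count of 2 for rescue against KO was 1 without a filter (35.2% of all loci), 1 against KO2 alone (24.4%, from 38.1%) and 0 to 3 with 1 library left out (31.2% to 50.1%; 0 without Rescue1 replicate 3 or Rescue2 replicate 1). Replicate numbers did not pair libraries (deviations of same-numbered libraries correlated at -0.18 to 0.04 for bases and -0.12 to 0.09 for heights), and with the replicate block 1 locus was called (36.1% of all loci), FOSL1 being lost. Between KO lines 1 locus was called with 150000 peaks. Between rescue lines 2 were called after scaling (8.60% of all loci) and 0 to 1 with 1 library left out. The shares of all loci beside the count with 150000 peaks and the counts with 1 library left out are not given here. With 1 library left out, regions higher or lower in enrichment numbered 10 to 16 for KO against WT (18.5% to 24.8% of all regions). For rescue against KO they numbered 11 to 14 (20.5% to 24.0%), and 5 against KO2 alone (10.8% of all regions, from 24.1%). Regions gained in KO, 3, became 1 at the stricter q (4.76% of all regions), 0 with 150000 peaks (4.63%), 5 when most of a region had to be covered (4.44%), 12 when most libraries of one group and few of the other sufficed (12.9%), 6 for KO2 alone (8.34%) and 3 to 5 with 1 library left out. Lost regions, 10, became 2 (stricter q; 2.65% of all regions), 3 (150000 peaks; 3.82%), 18 (the looser rule; 9.64%) and 10 to 12 (1 library left out). For rescue against KO, gained regions became 0, 0 and 13 in the same order (1.07%, 1.12% and 7.58% of all regions; 1 to 2 with 1 left out), and lost ones 0, 0 and 6 (1.29%, 1.55% and 6.76%), 1 with 5 kb flanks, 4 against KO2 alone (2.3%) and 2 to 3 with 1 left out. Signs that turned were all of differences not called at first. For KO against WT these were JUN 0.081 (stricter q), 0.075 (150000 peaks) and 0.019 (KO1 alone), FOSB 0.070, 0.054 and 0.019, and BATF3 0.017 and 0.00214 in the same order, with 5 kb flanks JUNB 0.050, JUND 0.10, FOSB 0.023, FOSL2 0.22 and MAFF -0.17, and MAFF -0.034 after scaling. For rescue against KO these were JUNB -0.044 (scaled), -0.0075 (stricter q), -0.053 (150000 peaks) and -0.053 (5 kb), JUND -0.0065 (scaled) and -0.056 (5 kb), FOS 0.049 (stricter q) and 0.15 (5 kb), ATF3 0.10, 0.051 and 0.0025 (exact test), and MAFF -0.00075 (scaled). With 1 library left out the ranges that crossed 0 were JUN -0.057 to 0.066, JUND -0.11 to 0.011, FOSB -0.047 to 0.036, FOSL2 -0.10 to 0.0051 and BATF3 -0.048 to 0.0045 for KO against WT, and JUNB -0.025 to 0.064, FOS -0.042 to 0.027 and ATF3 -0.031 to 0.028 for rescue against KO. The cause of these shifts was not tested. Without read counts, depth cannot be separated from the calling of weak peaks, and 3 libraries per line limit the precision.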
